A study of Mus musculus with 9 samples.

Results

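A set of 10 acute-phase and complement genes of mouse mammary gland cells was followed across mock, EPR and EPRSTOPE cells. They were taken by gene symbol from the deposited transcript tables and are the serum amyloid A genes *Saa1*, *Saa2* and *Saa3*, together with *Lcn2*, *C3*, *Cfb*, *Hp*, *Lbp*, *Ptx3* and *Orm1*. They are 10 of 52459 gene symbols in the files, and they account for 38 of 131100 transcripts. The genes were chosen by their symbols and selected on the measured levels in these libraries, that is, with the higher level of *Saa3* in both overexpressing populations already known. Values against mock cells are therefore a description and carry no test.

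EPR is a long noncoding RNA with a short open reading frame, and the mutant without its peptide served to separate effects of the transcript from those of the peptide. Total RNA was sequenced from 9 libraries of NMuMG cells, a line of mouse mammary gland epithelial cells, with 3 libraries in each group. All cells were stably transfected with a pBICEP-based expression vector and selected with G418 as transfectant pools. Mock cells carry the empty vector, EPR cells the mouse BC030870 transcript, and EPRSTOPE cells the same transcript with a point mutation that turns the second codon of its open reading frame into a stop. The triplicates are described as biological, but it is not stated whether the 3 libraries of a group come from separate pools. The p-values measure the spread between these libraries, which may be partly technical.

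Acute-phase proteins are secreted proteins whose plasma level changes in inflammation. The liver is their main source, but epithelia and other tissues make some of them locally, and mouse *Saa3* is chiefly expressed outside the liver. Interleukin-6 acting through STAT3 and interleukin-1 acting through NF-kB and C/EBP factors are the best-known inducers of these genes. Complement is a cascade of plasma proteins that marks and lyses targets, and C3 is the point where its classical, lectin and alternative pathways meet.

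Library totals ran from 5972457 to 11876435 estimated counts, so that 3 counts corresponded to 0.253 to 0.502 counts per 1000000 (CPM). CPM values below are scaled by edgeR's TMM factors. BC030870 itself was at 0, 0 and 0.163 CPM in the mock libraries, at 23.7, 27.0 and 23.9 CPM in EPR cells and at 4.74, 4.16 and 3.80 CPM in EPRSTOPE cells. The EPR and EPRSTOPE populations thus differed both in the mutation and in the amount of BC030870 RNA, and these cannot be told apart. The mean fragment length was taken from the difference between transcript length and effective length. It was 412 to 474 nt in mock, 181 to 283 nt in EPR and 116 to 387 nt in EPRSTOPE libraries. Mock libraries thus had the longest fragments, while the EPR and EPRSTOPE ranges overlapped. The part of fragment length in the results was not tested.

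Among members with a promoter entry, those of *Saa3*, *Lcn2* and *C3*, which were high in both populations, and of the near-silent *Saa1* for comparison are shown as RefSeq gives them on GRCm38.p6, each with 250 bases before and 50 bases after the start site. Of the 10 members, 6 had an entry in the promoter table, namely *Saa1*, *Saa2*, *Saa3*, *Lcn2*, *C3* and *Ptx3*. Capitals mark letters that match TTNNGNAAT, a consensus of C/EBP factors, on either strand.

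Saa3 (chr7:46715627-46715926, minus strand): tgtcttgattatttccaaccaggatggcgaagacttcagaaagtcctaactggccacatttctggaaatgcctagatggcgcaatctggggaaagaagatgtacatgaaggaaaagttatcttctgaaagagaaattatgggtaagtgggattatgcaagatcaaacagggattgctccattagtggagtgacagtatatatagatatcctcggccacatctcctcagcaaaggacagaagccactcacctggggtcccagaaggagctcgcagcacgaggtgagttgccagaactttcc

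Lcn2 (chr2:32387690-32387989, minus strand): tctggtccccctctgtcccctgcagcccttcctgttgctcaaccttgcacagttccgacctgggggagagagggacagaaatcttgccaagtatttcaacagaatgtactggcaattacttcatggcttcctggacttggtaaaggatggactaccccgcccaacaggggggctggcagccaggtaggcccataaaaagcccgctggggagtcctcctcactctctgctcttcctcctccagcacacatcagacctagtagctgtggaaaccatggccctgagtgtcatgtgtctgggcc

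C3 (chr17:57228087-57228386, minus strand): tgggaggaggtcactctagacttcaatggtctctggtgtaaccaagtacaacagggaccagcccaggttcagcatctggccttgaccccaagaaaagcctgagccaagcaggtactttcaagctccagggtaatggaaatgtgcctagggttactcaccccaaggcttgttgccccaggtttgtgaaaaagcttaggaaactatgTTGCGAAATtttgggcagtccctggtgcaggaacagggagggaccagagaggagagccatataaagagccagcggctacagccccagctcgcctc

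Saa1 (chr7:46742931-46743230, minus strand): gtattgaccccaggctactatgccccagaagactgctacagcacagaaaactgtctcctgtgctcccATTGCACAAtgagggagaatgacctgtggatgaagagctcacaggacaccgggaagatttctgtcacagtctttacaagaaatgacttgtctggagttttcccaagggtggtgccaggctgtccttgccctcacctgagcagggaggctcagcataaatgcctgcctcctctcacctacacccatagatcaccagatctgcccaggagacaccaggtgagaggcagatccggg

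The C/EBP letters lay 45 to 37 bases before the start site of *C3*, and a match on the opposite strand lay in the promoters of *Saa1* and *Saa2*. Among all 32851 promoters of the table, 11.5% held the C/EBP motif, 8.30% the STAT motif TTCNNNGAA and 4.51% the NF-kB consensus. Of the 6 member promoters, 3 held the C/EBP motif, 0 the STAT motif and 1, that of *Ptx3*, the NF-kB consensus. Both orientations of the NF-kB letters overlapped there. The C/EBP matches of *Saa1* and *Saa2*, near-identical neighbours, had the same letters, so the 3 promoters are not independent. A match describes letters and not a binding site, and the absence of these letters from the windows of *Saa3* and *Lcn2* says nothing about a factor.

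A gene was tested where it had at least 1 CPM in at least 3 libraries, which held for 15370 genes. A call needed both a Benjamini-Hochberg adjusted p below 0.01 in edgeR's quasi-likelihood test and a log2 fold change past 0.5 in either direction. Of the 10 members, 7 passed the filter on low values, and *Saa1*, *Saa2* and *Ptx3* did not. A member could pass through the overexpressing groups alone, so the following counts support nothing about the members. All 7 were called higher in EPR than in mock cells, where 15.2% of all tested genes were called higher. All 7 were also called higher in EPRSTOPE than in mock cells, where 15.6% were. In both comparisons the libraries of the 7 genes did not overlap, with the members above mock, as was the case for 28.9% of all genes in EPR and 28.2% in EPRSTOPE cells (57.8% and 56.5% counting either direction). The 2 comparisons share the mock libraries. In bulk RNA, more cells expressing a gene and more RNA per cell cannot be told apart.

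**Figure D1:**
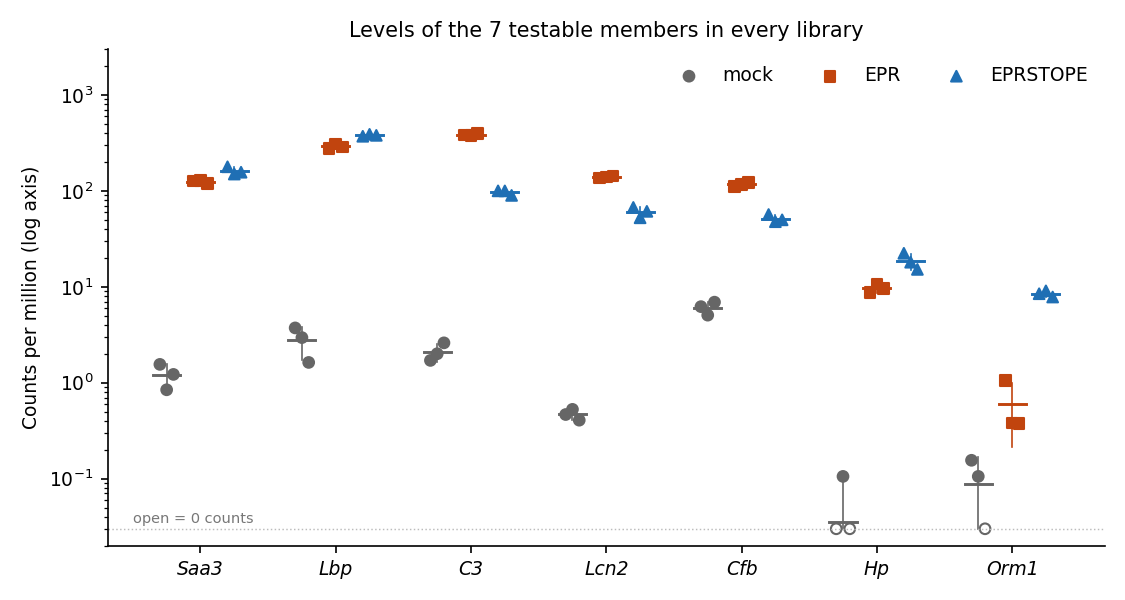
CPM (log axis) of the 7 members that could be tested, with 1 point for each of the 3 libraries of mock (circles), EPR (squares) and EPRSTOPE (triangles) cells. Horizontal bars are means, vertical lines are SD, and open symbols on the dotted line mark libraries at 0. All mock libraries lie below all other libraries for each gene, and the order of EPR and EPRSTOPE differs between genes.

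*Saa3* (ENSMUSG00000040026.8, chr7:46711998-46715700 of GRCm38, minus strand) encodes an amyloid A apolipoprotein made by epithelial cells, macrophages and adipocytes. It was at 1.55, 0.844 and 1.22 CPM in mock libraries. It was at 127, 128 and 120 CPM in EPR cells and at 178, 150 and 157 CPM in EPRSTOPE cells. The 3 groups did not overlap and EPRSTOPE libraries were the highest. The log2 fold change over mock was 6.72 (SE 0.14) in EPR and 7.09 (SE 0.13) in EPRSTOPE cells. These values placed *Saa3* at rank 96 and rank 81 among the increases of all tested genes. SE here and below is the size of the log2 fold change divided by the square root of the test's F statistic. The ratio of pooled counts over mock was 106 in EPR and 136 in EPRSTOPE cells. Its exact 95% interval of counting error was 75.7 to 155 and 96.8 to 198, wider than the SE implies.

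Most of the little signal in mock cells did not sit on the spliced *Saa3* mRNA. Saa3-201, the main coding transcript of 555 nt with 4 exons, had 1.59, 0 and 0 estimated counts in the mock libraries. It had 979 to 1413 counts in EPR and 1033 to 1386 in EPRSTOPE libraries. A longer transcript, also annotated as coding, has 2 exons and 2200 nt, of which 2051 nt lie in introns of Saa3-201. It held 8.29, 5.66 and 15.1 counts in mock cells, 32.1 to 50.1 in EPR and 16.9 to 20.3 in EPRSTOPE libraries. This mostly intronic transcript therefore carried 85.9% ± 13.2 (SD, n = 3) of the *Saa3* counts in mock cells, against 3.20% ± 0.67 in EPR and 1.5% ± 0.38 in EPRSTOPE cells. When counts were scaled by transcript length the log2 fold change of *Saa3* was 8.58 in EPR and 8.82 in EPRSTOPE cells.

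**Figure D2:**
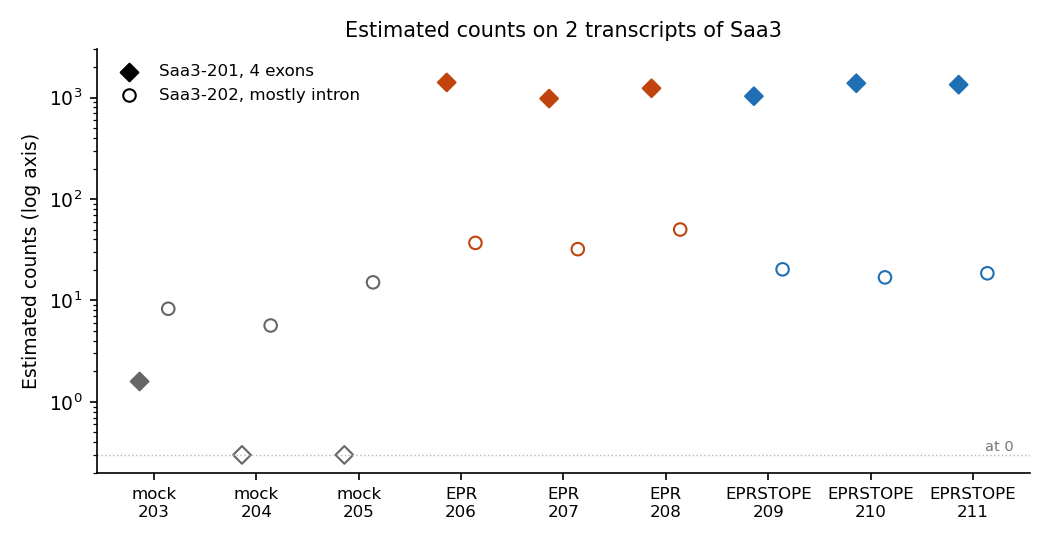
Estimated counts (log axis) on Saa3-201 (filled diamonds, open on the dotted line at 0) and on the mostly intronic longer transcript (open circles) in each of the 9 libraries, coloured by group. Saa3-201 goes from at most 1.59 counts in mock cells to at least 979 in the other libraries. The longer transcript has 5.66 to 15.1 counts in mock, 32.1 to 50.1 in EPR and 16.9 to 20.3 in EPRSTOPE libraries.

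The other serum amyloid A genes of the cluster were barely detected. *Saa1* (chr7:46740497-46742980), which encodes a major circulating form made by hepatocytes, had 0 counts in all mock libraries, 1 to 2 counts in each EPR library and 2 counts in each EPRSTOPE library. *Saa2* (chr7:46751790-46754313), its near-identical neighbour, had 0, 0 and 2 counts in mock, 0, 1 and 6 in EPR and 0, 1 and 5 in EPRSTOPE libraries. Groups overlapped for *Saa2*, and no fold is given for either gene at this depth. The coding transcripts of *Saa1* and *Saa2* were 94.4% identical over 606 aligned bases, so reads may have been split between them. Saa3-201 was 73.9% identical to the *Saa1* and 73.4% identical to the *Saa2* transcript.

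*Lbp* (ENSMUSG00000016024.9, chr2:158306493-158332852) encodes the lipopolysaccharide-binding protein that hands lipopolysaccharide to CD14. It was at 3.73, 2.95 and 1.63 CPM in mock libraries, at 277, 308 and 288 CPM in EPR and at 371, 389 and 379 CPM in EPRSTOPE libraries. The groups did not overlap, with EPRSTOPE the highest, and the log2 fold change over mock was 6.80 (SE 0.17) and 7.18 (SE 0.17).

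*Lcn2* (ENSMUSG00000026822.14, chr2:32384633-32388252) encodes lipocalin 2, which withholds iron from bacteria by binding their siderophores. Its mock libraries held 0.466, 0.528 and 0.407 CPM. EPR libraries held 137, 140 and 143 CPM, and EPRSTOPE libraries 67.3, 52.4 and 61.2 CPM. The order of the overexpressing groups was thus the opposite of that of *Saa3* and *Lbp*. The log2 fold change over mock was 8.20 (SE 0.15) in EPR and 6.98 (SE 0.16) in EPRSTOPE cells. Mock libraries held only 3 to 5 counts each. The ratio of pooled counts over mock was 304 in EPR and 129 in EPRSTOPE cells. Its exact 95% interval of counting error was 177 to 571 and 74.9 to 242, wider than the SE implies.

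The complement members stood highest in EPR cells. *C3* (ENSMUSG00000024164.15, chr17:57203970-57228136), the central component of the cascade, was at 1.71, 2.0 and 2.60 CPM in mock libraries. It was at 382, 376 and 395 CPM in EPR and at 100, 100 and 89.7 CPM in EPRSTOPE libraries. The groups did not overlap, and the log2 fold change over mock was 7.45 (SE 0.11) in EPR and 5.46 (SE 0.11) in EPRSTOPE cells. The ratio of pooled counts over mock was 175 in EPR and 43.8 in EPRSTOPE cells. Its exact 95% interval of counting error was 137 to 229 and 34.1 to 57.3, wider than the SE implies.

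*Cfb* (ENSMUSG00000090231.10, chr17:34856374-34862518), the protease of the alternative pathway that pairs with C3b, had the highest mock level of the 10 genes by TPM. It was at 6.21, 5.06 and 6.92 CPM in mock, at 111, 117 and 123 CPM in EPR and at 56.8, 47.7 and 49.9 CPM in EPRSTOPE libraries. Groups did not overlap, and the log2 fold change over mock was 4.26 (SE 0.11) and 3.07 (SE 0.11). A readthrough gene, Gm20547 (chr17:34856412-34882042), overlaps *Cfb* on the same strand and took 0 counts in mock, at most 7 in EPR and at most 3 in EPRSTOPE libraries. *C2*, the classical-pathway paralogue that follows *Cfb* on the chromosome, was at 0.693 ± 0.349, 1.25 ± 0.13 and 1.16 ± 0.398 CPM (SD, n = 3 each) in mock, EPR and EPRSTOPE cells and was not called in any comparison.

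The plasma carriers *Hp* and *Orm1* were lower in abundance and highest in EPRSTOPE cells. *Hp* (ENSMUSG00000031722.10, chr8:109575128-109579172) encodes haptoglobin, which binds free haemoglobin. It was at 0, 0.106 and 0 CPM in mock, at 8.73, 10.7 and 9.63 CPM in EPR and at 22.4, 18.0 and 15.2 CPM in EPRSTOPE libraries. With 1 count in all mock libraries together, the ratio of pooled counts was 270 (exact 95% interval of counting error 48.1 to 10702) for EPR and 509.7 (91.0 to 20176) for EPRSTOPE over mock.

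*Orm1* (ENSMUSG00000039196.2, chr4:63344560-63348163) encodes the lipid- and drug-binding orosomucoid 1. It was at 0.155, 0.106 and 0 CPM in mock and at 1.05, 0.379 and 0.374 CPM in EPR libraries, against 8.47, 9.08 and 7.82 CPM in EPRSTOPE libraries. On 2 mock counts, the ratio of pooled counts was 8.91 (2.15 to 78.9) for EPR and 119 (32.6 to 993) for EPRSTOPE over mock. Its paralogues share sequence with it, 91.0% identity for *Orm2* and 86.5% for *Orm3*, so the division of reads among them is uncertain. *Orm2* held at most 2 counts in any library and *Orm3* 9 to 19 counts in EPRSTOPE libraries.

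*Ptx3* (chr3:66219910-66225805) encodes the long pentraxin PTX3, a soluble pattern receptor made at sites of inflammation. It had 2 counts in 1 mock library and 0 in the other 8 libraries.

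Levels between genes were compared in TPM, which divides by effective transcript length. The summed TPM of the 10 members was 7.98 to 9.18 in mock, 745 to 826 in EPR and 689 to 796 in EPRSTOPE libraries. In EPR cells the order was *Saa3* at 276 ± 33.1 TPM, *Lbp* at 171 ± 19.2, *Lcn2* at 165 ± 3.84, *C3* at 120 ± 18.3 and *Cfb* at 54.0 ± 2.50 (SD, n = 3 each). *Lbp* and *Lcn2* were neighbours in that order whose libraries overlapped. The order depends on short transcripts with few counts. Lbp-203, of 436 nt, held 8.45% of the *Lbp* counts but 73.6 TPM on average in EPR cells. On the transcript with the most counts, the means in EPR cells were 274 TPM for *Saa3*, 157 for *Lcn2*, 88.4 for *Lbp*, 58.1 for *C3* and 21.2 for *Cfb*. In EPRSTOPE cells *Saa3* was at 330 ± 24.2 TPM, *Lbp* at 241 ± 37.7, *Lcn2* at 74.9 ± 3.24, *C3* at 27.9 ± 10.9, *Cfb* at 25.5 ± 4.51, *Hp* at 16.0 ± 0.57 and *Orm1* at 13.1 ± 2.17. The libraries of *C3* and *Cfb* overlapped, while those of *Hp* lay just above those of *Orm1*. On the transcript with the most counts, the means in EPRSTOPE cells were 329 TPM for *Saa3*, 120 for *Lbp* and 70.2 for *Lcn2*. They were 15.4 for *C3*, 13.1 for *Orm1*, 12.3 for *Hp* and 10.3 for *Cfb*. *Cfb* made up 41.3% to 51.3% of the members' TPM in mock libraries, whereas *Saa3* made up 31.9% to 36.3% in EPR and 43.4% to 48.8% in EPRSTOPE libraries.

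**Figure D3:**
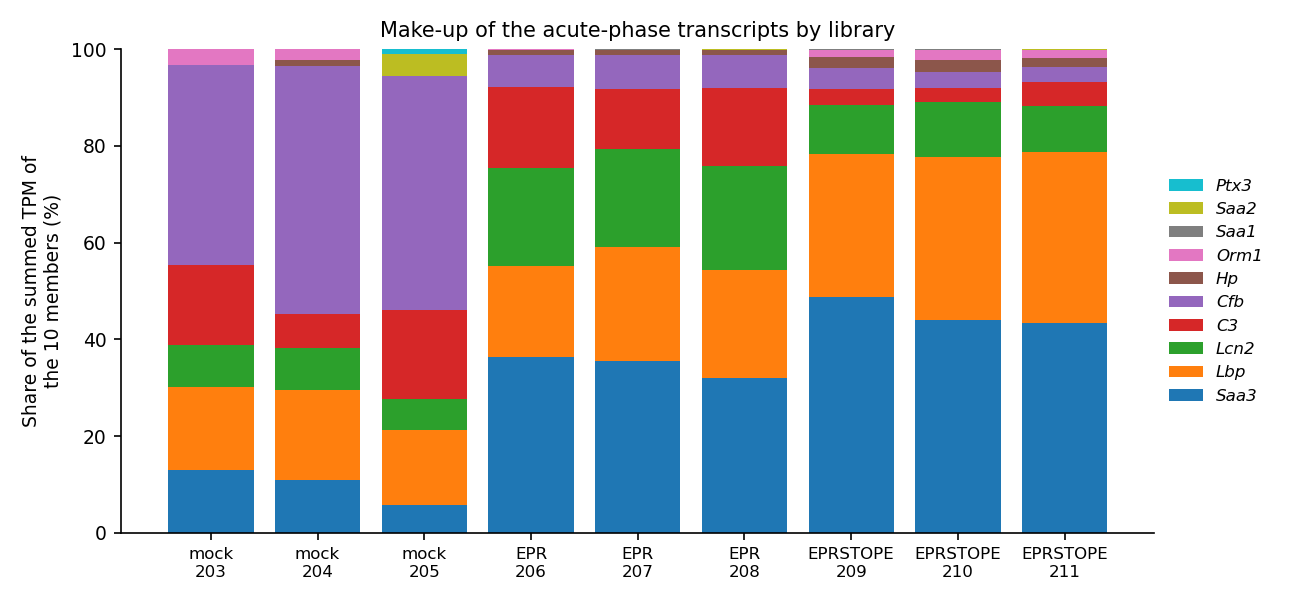
Share of the summed TPM of the 10 members that each gene contributes, in percent, with 1 bar for each library. The TPM of a gene is summed over all its transcripts, short ones included. *Cfb* is the largest share in the 3 mock libraries and *Saa3* in the other 6, and the *C3* and *Lcn2* shares are larger in EPR than in EPRSTOPE libraries.

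The contrast between EPR and EPRSTOPE cells is not part of the rule for the genes, although earlier results of these data were known when they were listed, and it was tested across all 15370 genes. Of the 7 members tested, 3 were called higher in EPR cells, *C3*, *Lcn2* and *Cfb*, beside 6.86% of all tested genes. In the opposite direction 2 were called lower, *Hp* and *Orm1*, beside 6.35%. *Orm1* passed the filter on low values through its EPRSTOPE libraries alone, so its count here supports nothing about the members. The libraries of all 7 did not overlap between these groups. Over all genes 20.8% lay wholly above in EPR cells and 22.2% wholly below. The exact two-sided permutation test gave p = 0.1 for each of the 7, which is the smallest p that 3 libraries against 3 can give.

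*C3* was 3.98-fold higher in EPR than in EPRSTOPE cells, with a log2 fold change of 1.99 (SE 0.08, 95% interval 1.82 to 2.16, edgeR adjusted p = 7.8e-09). *Lcn2* was 2.33-fold higher with a log2 fold change of 1.22 (SE 0.08, edgeR adjusted p = 5.2e-07). *Cfb* was 2.28-fold higher with a log2 fold change of 1.19 (SE 0.09, edgeR adjusted p = 1.6e-06). These 3 differences kept their call under each alternative in which they were tested.

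*Orm1* was 13.3-fold lower in EPR cells, with a log2 fold change of -3.74 (SE 0.42, 95% interval -4.66 to -2.82, edgeR adjusted p = 3.7e-05). The gene entered the test only through the group where it is high. Its log2 fold change ran from -4.44 to -3.45 when single libraries were left out, with -4.44 without EPR library 206. *Hp* had a log2 fold change of -0.93 (SE 0.20, 95% interval -1.36 to -0.50, edgeR adjusted p = 0.0036). The call of *Hp* was lost without EPR library 206 or 208, without EPRSTOPE library 209 or 210 and with length-scaled counts (adjusted p = 0.019). The log2 fold change of *Hp* stayed between -1.06 and -0.77 when single libraries were left out.

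*Saa3* had a log2 fold change of -0.37 (SE 0.08, 95% interval -0.55 to -0.19, edgeR adjusted p = 0.0048) and *Lbp* of -0.38 (SE 0.11, 95% interval -0.63 to -0.14, edgeR adjusted p = 0.023). Neither passed both thresholds, and the intervals leave room for a difference of up to 0.55 and 0.63 on the log2 scale in favour of EPRSTOPE cells. With length-scaled counts the value for *Saa3* was -0.25 with an adjusted p of 0.36.

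**Figure D4:**
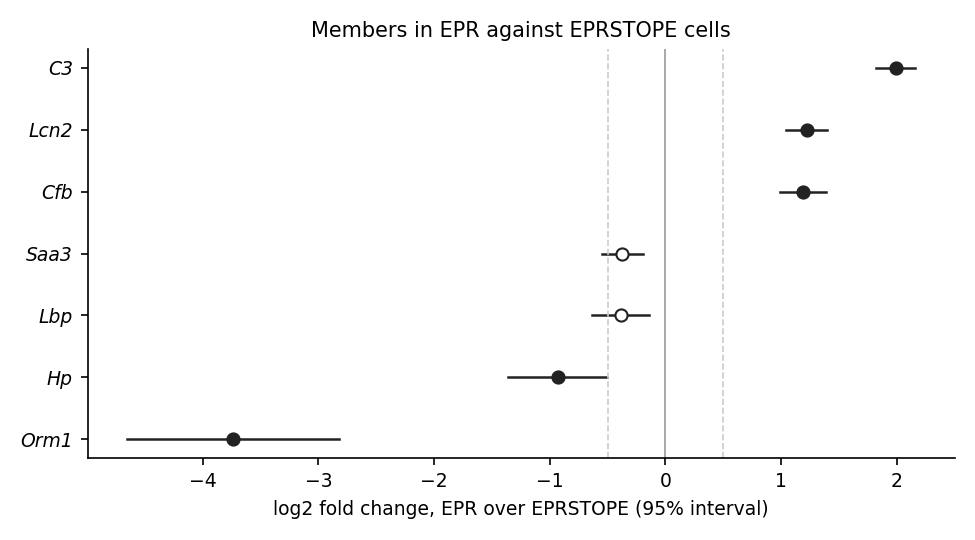
Log2 fold change of EPR over EPRSTOPE cells for the 7 members tested, with 95% intervals derived from edgeR's F statistic. Filled points were called, open points were not, and dashed lines mark the threshold of 0.5. *C3*, *Lcn2* and *Cfb* lie to the right, *Hp* and *Orm1* to the left, and *Saa3* and *Lbp* between them.

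The other genes of the pathway were counted in 7 lists holding 195 genes in all, of which 110 could be tested. Together 50 rose and 11 fell in EPR against mock cells, where 15.2% of all tested genes rose and 12.9% fell (28.1% either way). In EPRSTOPE against mock cells 44 rose and 16 fell, where 15.6% of all tested genes rose and 12.4% fell (28.0% either way). Their median log2 fold change was 0.68 and 0.44, beside -0.01 and -0.04 over all tested genes. Between EPR and EPRSTOPE cells 19 were higher in EPR and 18 lower, where 6.86% of all tested genes were higher and 6.35% lower (13.2% either way). A listed gene could pass the filter on low values through a single group where it is high, as *Trf* did. The list counts are therefore a description.

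The 5 complement components *C1ra*, *C1s1*, *C1s2*, *C4b* and *C9*, of the classical and terminal pathways, were highest in EPRSTOPE cells, unlike *C3* and *Cfb*. Of 13 tested components, the same 6 rose over mock in EPR (15.2% of all tested genes) and EPRSTOPE cells (15.6%). They were *C1ra*, *C1rb*, *C1s1*, *C1s2*, *C4b* and *C9*. *Cfp*, encoding properdin, fell in EPRSTOPE cells (log2 fold change -2.13). *C1s1*, a protease of the C1 complex, averaged 0.211 ± 0.366, 31.3 ± 1.04 and 125 ± 7.53 CPM (SD, n = 3 each) in mock, EPR and EPRSTOPE cells. It was lower in EPR than in EPRSTOPE cells by a log2 fold change of -1.99 (SE 0.16, edgeR adjusted p = 2.5e-06).

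*C1ra*, its partner protease, went from 1.43 ± 0.143 through 19.7 ± 2.04 to 43.0 ± 3.10 CPM in mock, EPR and EPRSTOPE cells. *C9*, the pore-forming component, had 0 counts in mock cells, 1.92 ± 0.99 CPM in EPR and 14.1 ± 2.59 CPM in EPRSTOPE cells. Against a floor of 3 counts over the mock group this is at least 16.9-fold and at least 129-fold higher. Between EPR and EPRSTOPE cells 5 components were lower in EPR (*C1ra*, *C1s1*, *C1s2*, *C4b* and *C9*), beside 6.35% of all tested genes. *C4b* had 38 counts in EPR and 180 in EPRSTOPE cells and passed the filter on low values through its EPRSTOPE libraries. *Cfp*, a stabilizer of the alternative-pathway convertase, was higher in EPR (log2 fold change 2.14), on 56 counts against 10. The pairs *C1ra* and *C1rb*, and *C1s1* and *C1s2*, are close copies, so the division of reads within each pair is uncertain.

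Among the complement regulators and receptors, *Clu* and *Csmd1* were among the genes that rose in EPR cells, and *Clu*, *Csmd1*, *Cr1l* and *C4bp* rose in EPRSTOPE cells. *Clu*, encoding the chaperone and terminal-pathway inhibitor clusterin, averaged 54.1 ± 5.12, 998 ± 13.7 and 258 ± 7.28 CPM in mock, EPR and EPRSTOPE cells. Its difference between EPR and EPRSTOPE cells (log2 fold change 1.95, edgeR adjusted p = 2.2e-09) had the direction of *C3*. *Csmd1* had the opposite direction, at 1.54 ± 0.258 CPM in EPR against 12.8 ± 0.224 CPM in EPRSTOPE cells. *Cd55*, an inhibitor of C3 convertases, was also higher in EPR than in EPRSTOPE cells, on only 57 counts against 6. Its EPR libraries overlapped those of mock cells. *C4bp* was lower in EPR, on 109 counts against 205.

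Of 13 tested other acute-phase proteins, 7 rose in EPR (15.2% of all tested genes) and 9 in EPRSTOPE cells (15.6%). *Serpina1b* fell in both (12.9% and 12.4%), with 92, 27 and 1 counts in mock, EPR and EPRSTOPE cells. *Hpx*, the haem-binding hemopexin, was at 1.59 ± 0.282, 52.6 ± 2.32 and 26 ± 5.55 CPM in mock, EPR and EPRSTOPE cells. *Cp*, encoding the copper oxidase ceruloplasmin, was at 179 ± 2.90, 1508 ± 98.3 and 1057 ± 115 CPM. *Trf*, encoding transferrin, rose in EPR cells to 22.9 ± 7.18 CPM and was at 0.548 ± 0.0943 CPM in mock and 0.266 ± 0.372 CPM in EPRSTOPE cells.

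Between EPR and EPRSTOPE cells *Hpx*, *Cp*, *Itih2*, *Serpina1b* and *Trf* were higher in EPR. *Trf* passed the filter on low values through its EPR libraries alone and *Serpina1b* through its mock libraries alone. *Il1rn*, the interleukin-1 receptor antagonist, was lower in EPR (log2 fold change -1.0, edgeR adjusted p = 2.4e-06). *S100a8*, a subunit of the antimicrobial protein calprotectin, was at 11.1 ± 1.36 CPM in EPR against 13.3 ± 4.37 CPM in EPRSTOPE cells, which did not pass the test of the difference. Its partner *S100a9* had 0 counts in mock cells and was at least 89.7-fold and at least 46.3-fold higher in EPR and EPRSTOPE cells against a floor of 3 counts over the mock group.

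**Figure D5:**
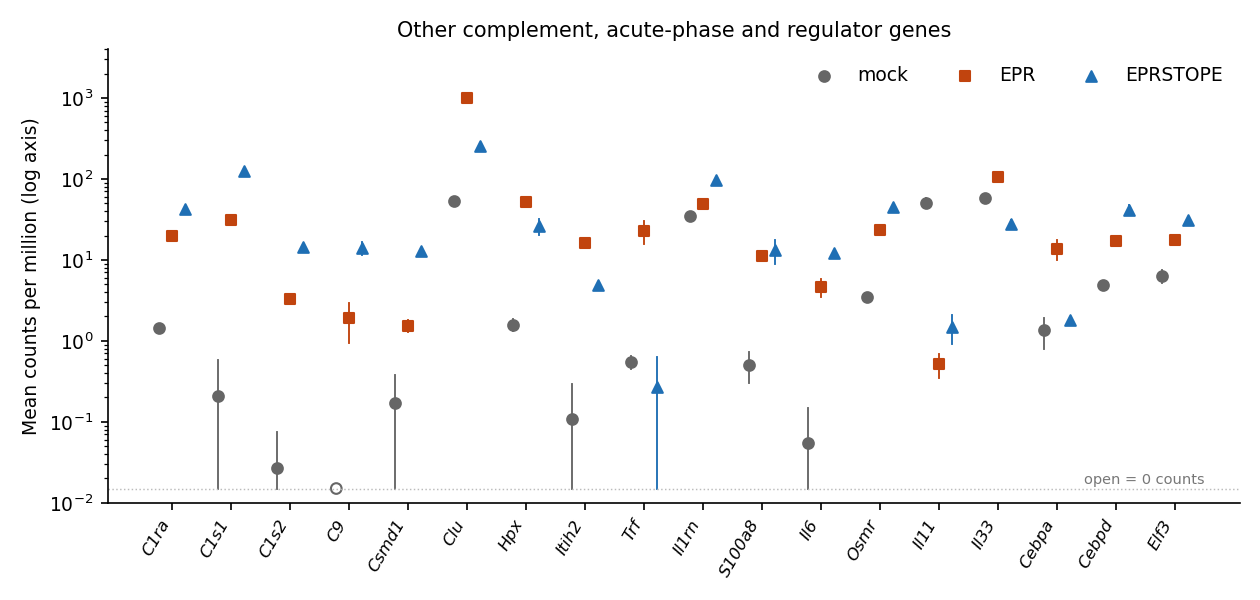
Mean CPM (log axis) of 18 genes of the pathway lists in mock (circles), EPR (squares) and EPRSTOPE (triangles) cells, with SD of 3 libraries as lines. *C1s1*, *C9*, *Il6* and *Cebpd* are highest in EPRSTOPE cells, *Clu*, *Hpx*, *Trf* and *Cebpa* are highest in EPR cells, and *Il11* is highest in mock cells.

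Receptors and partners of the member proteins moved in both directions. Of 9 tested, *Cd14*, *Tlr2*, *Tlr4* and *Lrp1* rose in both EPR (15.2% of all tested genes) and EPRSTOPE cells (15.6%). *Lrp2* and *Scarb1* fell in both (12.9% and 12.4%). *Lrp2* passed the filter on low values through its mock libraries, where it is high. *Cd14*, which receives lipopolysaccharide from LBP, averaged 39.6 ± 3.99, 303 ± 15 and 195 ± 13.9 CPM in mock, EPR and EPRSTOPE cells. *Tlr4*, the signalling receptor for lipopolysaccharide, was at 11.2 ± 0.672, 44.2 ± 7.76 and 48.9 ± 4.44 CPM. *Scarb1*, a scavenger receptor that binds serum amyloid A, was at 42.5 ± 2.98, 16.7 ± 0.886 and 22 ± 2.43 CPM. Between EPR and EPRSTOPE cells *Cd14* was higher and *Lrp1* lower in EPR.

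Of 20 tested inducing cytokines and receptors, 12 rose in EPR cells (15.2% of all tested genes) and 5 fell (12.9%). In EPRSTOPE cells 9 rose (15.6%) and 5 fell (12.4%). *Il6* had 2 counts in mock cells, and the ratio of pooled counts over mock was 65.2 (17.7 to 543) in EPR and 172 (47.3 to 1431) in EPRSTOPE cells. Its level of 4.65 ± 1.1 CPM in EPR cells was lower than the 12.2 ± 0.106 CPM of EPRSTOPE cells, with a log2 fold change of -1.40 (edgeR adjusted p = 0.0017). *Osmr*, the oncostatin M receptor, was at 3.44 ± 0.385, 23.7 ± 2.42 and 44.6 ± 5.11 CPM in mock, EPR and EPRSTOPE cells. *Il11*, a cytokine that signals through the same receptor subunit as interleukin-6, fell from 51.1 ± 7.51 CPM to 0.515 ± 0.165 CPM in EPR and 1.5 ± 0.576 CPM in EPRSTOPE cells. *Il33* was the 1 gene of this list called higher in EPR than in EPRSTOPE cells, beside 6.86% of all tested genes. *Il6*, *Tnfrsf1b*, *Osmr*, *Il17ra* and *Il17rc* were called lower, beside 6.35%.

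Among 23 tested transcription factors of acute-phase genes, 10 rose in EPR cells (15.2% of all tested genes) and 2 fell (12.9%). In EPRSTOPE cells 6 rose (15.6%) and 4 fell (12.4%). *Cebpd*, a C/EBP factor induced in the acute phase, was at 4.85 ± 0.307, 17.4 ± 1.62 and 41.6 ± 6.07 CPM in mock, EPR and EPRSTOPE cells. *Cebpa* was at 13.7 ± 3.82 CPM in EPR, against 1.36 ± 0.575 in mock and 1.80 ± 0.0837 in EPRSTOPE cells. *Rela* and *Nfkb2*, subunits of NF-kB, fell in EPRSTOPE cells (log2 fold change -0.83 and -1.35), *Nfkb2* also fell in EPR cells (-0.51), and both were higher in EPR than in EPRSTOPE cells. *Elf3*, an epithelial ETS factor, was at 6.33 ± 1.11, 17.8 ± 0.891 and 31.4 ± 2.33 CPM.

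Of 24 tested feedback genes of NF-kB and STAT3 signalling, 8 rose in EPR cells (15.2% of all tested genes) and *Socs2* fell (12.9%). In EPRSTOPE cells 6 rose (15.6%) and *Birc2*, *Socs1* and *Cish* fell (12.4%). *Tnip3*, which restrains NF-kB signalling, was at 3.50 ± 0.399, 133 ± 6.44 and 101 ± 1.58 CPM in mock, EPR and EPRSTOPE cells. *Socs3*, the STAT3 feedback inhibitor, was at 31.3 ± 0.477, 52.9 ± 6.59 and 71.5 ± 3.79 CPM. *Nfkbia*, encoding the NF-kB inhibitor that NF-kB itself induces, was at 88.1 ± 7.75, 71.1 ± 2.33 and 101 ± 1.04 CPM. Between EPR and EPRSTOPE cells *Nfkbie* and *Tnfaip3* were higher and *Nfkbia* and *Socs2* lower in EPR.

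Epithelial markers did not all follow the members. Of 13 fixed markers, *Epcam*, *Cldn3*, *Cldn4*, *Cldn7* and *Esrp1* were at 0 in every mock library of this epithelial line, and *Cldn3*, *Cldn4*, *Cldn7* and *Esrp1* were at 0 in EPRSTOPE libraries. The summed level of the 13 was 3971 to 4430 CPM in mock, 9889 to 10998 CPM in EPR and 11201 to 11521 CPM in EPRSTOPE libraries. *Krt8* and *Krt18* made up most of this sum in each group. All 8 that could be tested rose in EPR cells (15.2% of all tested genes). In EPRSTOPE cells 5 rose (15.6%), namely *Cdh1*, *Krt8*, *Krt18*, *Ocln* and *Tjp1*, while *Epcam*, *Krt19* and *Krt7* were not called. *Epcam* passed the filter on low values through its EPR libraries alone, so the count of 8 supports nothing about the markers. The 15 mesenchymal markers summed to 4074 to 4238 CPM in mock, 2227 to 2456 in EPR and 3976 to 4313 in EPRSTOPE libraries. Of 8 tested, 6 fell in EPR cells (12.9% of all tested genes) and 3 (*Cdh2*, *Twist2* and *Acta2*) in EPRSTOPE cells (12.4%). *Pdgfra*, at 0 in mock libraries, rose in both groups. The part of these markers in the members' levels was not tested.

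The 12 hepatocyte markers summed to 61.5 to 63.3 CPM in mock, 115 to 136 in EPR and 77.0 to 98.0 in EPRSTOPE libraries. Nearly all of it was *Hnf4a*, the 1 marker that could be tested. *Hnf4a* was called higher in EPR than in mock cells (log2 fold change 1.02) and than in EPRSTOPE cells (0.54). In EPRSTOPE against mock cells it was not called (0.48). *Alb* had 2, 17 and 3 counts in the 3 groups. The 10 macrophage markers summed to 11.2 to 14.9, 19.1 to 23.9 and 14.4 to 21.5 CPM with *Adgre1* and *Tyrobp* at 0 in all libraries, and of 3 tested *Mrc1* rose in both groups. The 10 neutrophil markers summed to 4.97 to 6.33, 23.9 to 29.4 and 20.6 to 25.9 CPM, of which *S100a8* and *S100a9* rose while *Elane* and *Ngp* were at 0 in all libraries. The part of these markers in the members' levels was likewise not tested.

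The 8 lymphocyte markers summed to at most 1.71 CPM in any library and none could be tested. The 7 adipocyte markers summed to 8.39 to 10.6, 10.7 to 14.3 and 11.7 to 17.0 CPM, with *Adipoq* and *Lep* at 0 in all libraries, and the 7 endothelial markers to 13.3 to 14.2, 14.1 to 17.4 and 12.9 to 19.9 CPM. The 1 adipocyte and 2 endothelial markers that could be tested did not pass both thresholds.

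The genes whose profile was most like that of *Saa3* were found by Pearson's r of log2 CPM over the 9 libraries, which fall into 3 groups and share library sizes. Of 9937 genes averaging 10 CPM or more in their highest group, the 5 most alike were *Ly6e*, *Emp3*, *Ccl7*, *H6pd* and *Pkhd1l1*, each with r of 0.998 to 0.999. *Ly6e* averaged 0.483 ± 0.120, 87.5 ± 2.35 and 133 ± 7.39 CPM in mock, EPR and EPRSTOPE cells. Of these genes, 115 had r of at least 0.99, so such likeness was common. *Lbp* was at rank 29, *Hp* at 131, *Lcn2* at 358, *C3* at 853 and *Cfb* at 869 of the 9937. None of the 5 were among the 5 most alike by Spearman's rho.

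Of the 10 tested genes nearest to *Saa3* on chromosome 7, 5 on either side, 4 were called in EPR against mock cells, beside 28.1% of all tested genes. Among them *Ccdc114* and *Ldha* rose in EPR cells (log2 fold change 1.57 and 0.72), and *Saal1* and *Gtf2h1* fell (-0.89 and -0.58). *Saal1*, the nearest tested neighbour of *Saa3*, averaged 28.3 ± 2.71, 15.2 ± 1.44 and 18.3 ± 2.35 CPM in mock, EPR and EPRSTOPE cells and was the 1 neighbour that fell in EPRSTOPE cells (-0.64).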

How the data were processed

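Total RNA of NMuMG cells was sequenced as stranded, paired-end libraries. The authors quantified reads with kallisto 0.43.1 on Gencode vM15 mouse transcripts and deposited, per transcript, estimated counts without normalization, TPM values scaled by effective length, and the transcript length and effective length. Demultiplexing with bcl2fastq 2.0 is named in the submitters' processing notes.

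Estimated counts were summed per gene symbol and rounded. Genes reaching 1 CPM in 3 or more libraries entered edgeR 4.0.16 (R 4.3.3), whose quasi-likelihood F-test was run with TMM factors, 1 factor of 3 levels, all 9 libraries and Benjamini-Hochberg adjustment. The thresholds are those of the study's methods, which applied limma-voom to transcripts. The biological coefficient of variation was 0.132. Alternatives were DESeq2 1.42.0, limma 3.58.1 with voom, other scalings, filters and thresholds, length-scaled TPM, only the compared groups, and leaving out each library. Scripts were tested on simulated data.

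Groups came from the sample titles. The members and lists were chosen with earlier results of these data known. Pathway genes were named where called, averaging 10 CPM or more in the higher group, without overlap, up to 3 per list, comparison and direction. Genes that make up a count of 5 or fewer, and *C2*, were named after their values were seen. The rule also named the 5 genes most like *Saa3* and its called neighbours. Positions are from Gencode M21 on GRCm38, and transcript identities were computed with Biopython 1.88. Counting intervals and floors cover counting error only. Member proteins were not analysed here. The result of 1 gene of the pathway lists is not reported here, and the list counts include it.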

Additional observations from a re-analysis of the deposited data

How the results depend on the processing

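Over the alternatives, 116 values of members in EPR against EPRSTOPE cells kept their direction and side of the threshold, and none changed direction under any alternative run. A further 6 lost the call and were all for *Hp*, under length-scaled TPM, a threshold of 1, and without EPR library 206, EPR library 208, EPRSTOPE library 209 or EPRSTOPE library 210. The mock level rests on few counts for *Hp* and *Orm1*, and leaving out single libraries moved their log2 fold change over mock between 6.97 and 9.46 for *Hp* and between 2.17 and 3.41 for *Orm1* in EPR cells, and between 7.90 and 10.4 and between 5.91 and 7.15 in EPRSTOPE cells. The highest value for *Hp* in both came without mock library 204, which left mock at 0, so it depends on the prior count.

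With at least 10 counts in every library, 32 pathway genes rose and 5 fell in EPR cells, 10 fell in EPRSTOPE cells and 10 were lower in EPR than in EPRSTOPE cells, and fewer genes were tested. With length-scaled TPM, 1282 of all genes and 7 pathway genes fell in EPR cells, 1202 genes fell in EPRSTOPE cells, and between EPR and EPRSTOPE cells 470 genes were higher and 452 lower, with 10 and 8 pathway genes. The cause was not tested. With a log2 fold change beyond 1, 1354 genes rose and 942 fell in EPR cells and 1300 rose and 1073 fell in EPRSTOPE cells. Between the 2 populations 577 were higher in EPR and 424 lower, with 11 pathway genes each way, and 7 pathway genes fell in EPR cells. The main counts were 2336 and 1980, 2399 and 1903, and 1055 and 976.

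Leaving out each library, 45 to 50 pathway genes rose and 8 to 11 fell in EPR cells, 41 to 44 rose and 13 to 19 fell in EPRSTOPE cells, and 13 to 19 were higher and 16 to 18 lower in EPR than in EPRSTOPE cells. Over all genes 2113 to 2376 rose and 1651 to 1992 fell in EPR cells, 2190 to 2373 rose and 1586 to 1886 fell in EPRSTOPE cells, and 832 to 1062 were higher and 804 to 964 lower in EPR than in EPRSTOPE cells. Depth limits the mock values, since 3 counts correspond to 0.253 to 0.502 CPM. Scaling by library size alone moved the median of all genes in EPRSTOPE against mock cells by -0.12. No paired analysis was possible because the replicate numbers are not shared between groups.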
